A study of Rattus norvegicus with 12 samples.

Results

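The actin genes Actb, Actg1 and Acta2 and the contractile genes Tagln, Cnn1, Myl9, Tpm1, Tpm2, Fhl2 and Flna were followed in rat F111 fibroblasts with and without attachment. All probe sets whose platform annotation gave 1 of these 10 symbols alone were taken, together with the array's 3 beta-actin control probe sets for Actb. This gave 21 probe sets of the 31045 tested, and 10 genes of 14218. F111 is an established fibroblast line from the Fischer rat. A16 cells stayed attached to plastic for 16 h, and NA16 cells were kept from attaching for the same 16 h on agarose-coated surfaces, both in serum-containing medium. Affymetrix Rat Genome arrays, 3 per state, carried 2 biological replicates and a technical replicate numbered 2, and the comparison asks which of these transcripts differ once attachment is withheld. Values are log2 RMA intensities, in which 1 unit is a 2-fold difference, and changes are NA16 minus A16. A probe set was called when limma's adjusted p over all probe sets was below 0.05. Technical replicate 2 was averaged with biological replicate 1, which left n = 2 values per state behind each mean and SD.

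Actin monomers polymerise into the filaments that carry tension in an attached cell, and most members encode proteins that build, bind or pull on those filaments. Many of their genes are targets of serum response factor (SRF), a transcription factor that binds the CArG box and works with myocardin-related cofactors. These cofactors are held back by free actin monomers and reach the nucleus when monomers are taken up into filaments. Acta2, Tagln, Cnn1 and Myl9 are best known from smooth muscle, and fibroblasts express several of them when they spread and contract.

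The 6 arrays had median intensities of 152 to 157 and maxima of 14.91 to 15.02 on the log2 scale. Arrays of 1 state correlated at 0.9897 to 0.997 over all probe sets and arrays of different states at 0.9533 to 0.9607. In A16 technical replicate 2 lay closest to biological replicate 1 (r = 0.997 against 0.9912 with biological replicate 2). In NA16 it lay closest to biological replicate 2 (r = 0.997 against 0.9929 with biological replicate 1), which the labels do not point to. With technical replicate 2 paired in that way in NA16, 11 member probe sets were again lower and 0 higher. In bulk RNA, fewer cells of a type and less RNA per cell cannot be told apart.

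The promoters of 7 members were found in the RefSeq promoter table of the GRCr8 assembly. The 250 bases before the start were searched for the CArG box, read as CC, a run of A or T letters and GG, 10 letters in all. The pattern reads the same on both strands. Of 33469 promoters, 1.5% held an exact box and 18.7% a box with at most 1 mismatch. Of the 8 member promoters 3 held an exact box and 5 a box with at most 1 mismatch. The windows of Acta2, Actg1, Fhl2 and Cnn1 are shown because they hold near, exact, exact and no boxes. Acta2 and Fhl2 were lower in NA16, Actg1 was not called, and Cnn1 was dim and not called. Flna, which also held no box in its window, was lower (log2 change -1.45). Capitals mark the boxes, near ones included, and all windows run 5′ to 3′ towards the start.
Acta2, chr1:241172504-241172753, minus strand: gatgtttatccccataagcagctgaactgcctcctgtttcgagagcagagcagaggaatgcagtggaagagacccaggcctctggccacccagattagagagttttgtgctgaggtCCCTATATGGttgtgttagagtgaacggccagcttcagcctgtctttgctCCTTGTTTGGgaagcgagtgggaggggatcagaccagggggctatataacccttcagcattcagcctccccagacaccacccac
Actg1, chr10:106120952-106121201, minus strand: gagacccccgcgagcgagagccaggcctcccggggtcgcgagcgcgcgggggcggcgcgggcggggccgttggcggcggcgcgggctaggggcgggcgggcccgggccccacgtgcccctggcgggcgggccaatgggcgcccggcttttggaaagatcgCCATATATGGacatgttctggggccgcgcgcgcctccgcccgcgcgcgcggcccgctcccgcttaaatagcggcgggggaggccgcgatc
Fhl2, chr9:52954541-52954790, minus strand: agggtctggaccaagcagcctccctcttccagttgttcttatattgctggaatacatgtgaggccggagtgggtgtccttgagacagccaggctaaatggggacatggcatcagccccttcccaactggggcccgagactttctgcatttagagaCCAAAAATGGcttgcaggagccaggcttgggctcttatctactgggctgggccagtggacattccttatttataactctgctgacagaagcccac
Cnn1, chr8:28908187-28908436, plus strand: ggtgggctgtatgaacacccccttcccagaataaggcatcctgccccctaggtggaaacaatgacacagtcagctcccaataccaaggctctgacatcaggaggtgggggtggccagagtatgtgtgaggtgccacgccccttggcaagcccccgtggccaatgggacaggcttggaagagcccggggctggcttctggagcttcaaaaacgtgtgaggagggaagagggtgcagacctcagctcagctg
The 2 near boxes of Acta2 began 134 and 84 bases before the start, and the exact box of Actg1 began 90 bases before it. Fhl2 had a second promoter with an exact box 58 bases before its start, besides the one shown at 95 bases. Tpm1 held near boxes at 195 and 55 bases, and neither Cnn1, Flna nor Tpm2 held a match in this window. For Tpm1, Tpm2, Flna and the second Fhl2 promoter the listed start lay inside the gene's annotated span. A match is a description of letters and not of binding.

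Of the 21 member probe sets 11 were lower in NA16 and 0 were higher, where 13.2% of all probe sets were lower and 14.3% higher. At least 2-fold falls made up 8 of the 11, where 4.86% of all probe sets fell so far. The other 10 were not called. The members' median change was -0.77, against -0.02 over all probe sets. Of the 10 genes, each by its brightest probe set and adjusted over all genes, 7 were lower and 0 higher (17.0% and 21.9% of all genes), with 4 lower by at least 2-fold (6.12% of all genes). All 3 NA16 arrays lay below all 3 A16 arrays for 13 member probe sets and above them for 1, where the shares over all probe sets were 23.1% and 21.2%. The called genes were Actb, Acta2, Tagln, Myl9, Tpm1, Fhl2 and Flna. The methods' t-test on the same replicates called 0 probe sets anywhere after Benjamini-Hochberg adjustment, which the paper does not mention. At an unadjusted p below 0.05 it called 11 members lower and 1 higher, and 3966 of all probe sets lower and 4060 higher. With a 2-fold change also required, the rule nearest to the paper's, it called 7 of 21 members lower and 0 higher. By that rule 1322 of all probe sets were lower and 1523 higher.

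**Figure D1:**
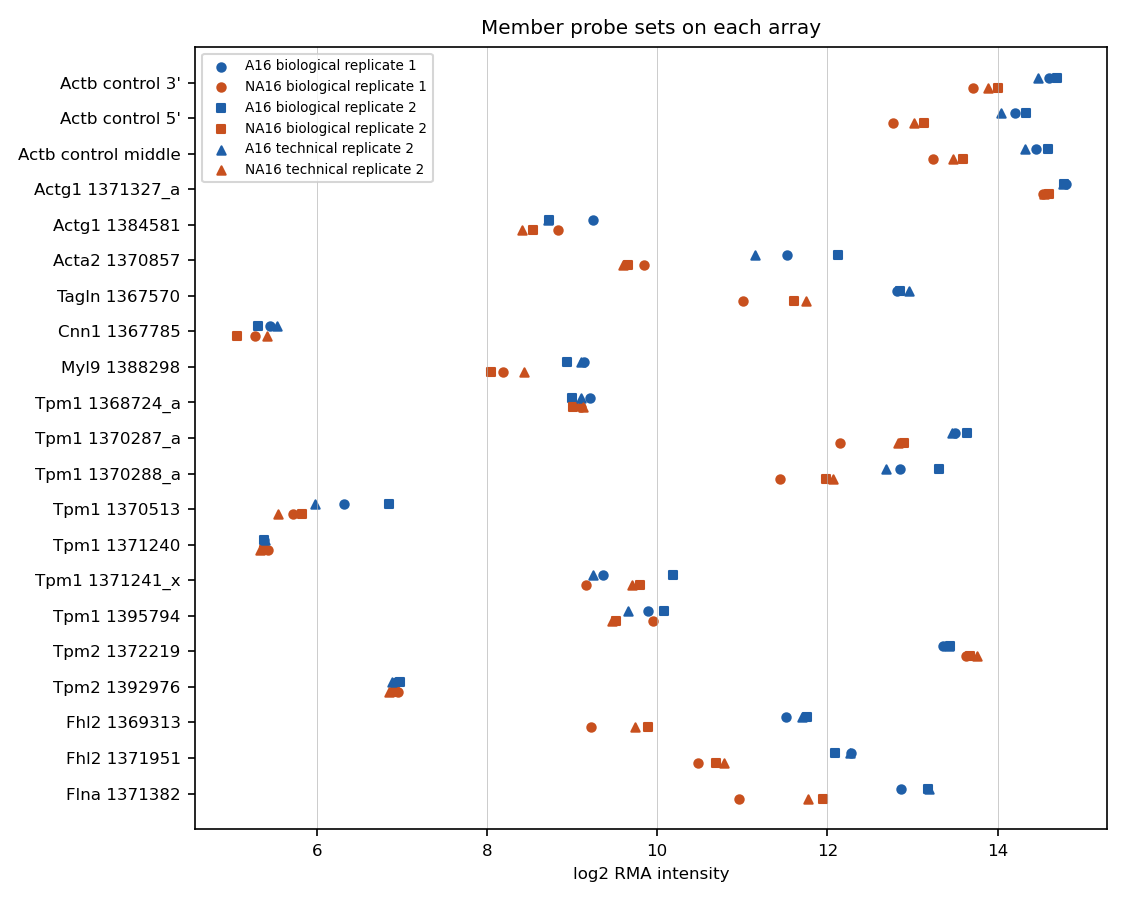
Log2 RMA intensity (x axis) of each member probe set (y axis) on the 3 A16 arrays (blue) and the 3 NA16 arrays (orange), with marker shapes for the replicates. The NA16 arrays lie to the left of the A16 arrays for 13 of 21 probe sets and to the right for 1, a Tpm2 probe set.

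Acta2, the smooth muscle actin that marks contractile fibroblasts, had a fall of about the same size as the larger one of Fhl2. Its probe set 1370857_at read 11.53, 12.12 and 11.15 on A16 biological replicate 1, biological replicate 2 and technical replicate 2, and 9.84, 9.66 and 9.60 on the NA16 arrays in the same order. The A16 arrays were spread over almost a full unit and the NA16 arrays lay close together, with no overlap. The level fell from 11.73 ± 0.55 to 9.69 ± 0.04 (SD, n = 2), 4.12-fold (log2 change -2.04, SE 0.25, limma adjusted p = 0.0027). The change was smaller in the PLIER columns of the same arrays, at -1.52. It lay between -2.43 and -1.52 over 16 limma alternatives, all of which called it. Numbers of alternatives, here and below, leave out the methods' t-test, whose Benjamini-Hochberg adjusted p for Acta2 was 0.16. Which of Acta2 and Fhl2 fell more depended on the setting, with -1.52 for Acta2 and -2.01 for Fhl2 probe set 1369313_at in the PLIER columns. The A16 array with the highest Acta2 was biological replicate 2, and the other A16 arrays were still above every NA16 array.

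Actb, cytoplasmic beta-actin and a common loading reference, fell at each of its 3 control probe sets. The 3′ probe set read 14.60, 14.70 and 14.48 in A16 and 13.71, 14.01 and 13.89 in NA16. The states did not overlap, and the fall was 1.64-fold (log2 change -0.72, SE 0.13, adjusted p = 0.0095 by limma). Without NA16 replicate 1 and its technical repeat it was -0.61 and not called (limma adjusted p = 0.058). The middle probe set read 14.46, 14.59 and 14.33 in A16 and 13.24, 13.59 and 13.47 in NA16, and fell 2.02-fold (-1.02, limma adjusted p = 0.0035). The 5′ probe set read 14.21, 14.33 and 14.04 in A16 and 12.77, 13.13 and 13.02 in NA16, and fell 2.31-fold (-1.21, limma adjusted p = 0.0020). So the size of the Actb change differed between the 3 probe sets. Their A16 means were 14.62 (3′), 14.49 (middle) and 14.23 (5′), so position along the transcript and signal level cannot be told apart. Beta-actin RNA was also the loading control of the study's own qPCR.

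The 3′ minus 5′ difference of beta-actin was 0.39, 0.37 and 0.44 on the A16 arrays and 0.93, 0.87 and 0.87 on the NA16 arrays. It rose from 0.39 ± 0.03 to 0.89 ± 0.02 (SD, n = 2), a change of 0.49, or 0.60 in the PLIER columns. All NA16 arrays were above all A16 arrays, and the 2-sided exact permutation test gave p = 0.333, the smallest that 2 against 2 replicates allow. The control probe sets of GAPDH, a glycolytic enzyme, had a 3′ minus 5′ difference of -0.03 ± 0.04 in A16 and 0.02 ± 0.06 in NA16 (SD, n = 2). Those of hexokinase had 0.82 ± 0.06 and 0.78 ± 0.01 (SD, n = 2). GAPDH itself read 0.19, 0.28 and 0.24 higher in NA16 at its 5′, middle and 3′ probe sets, all close to the arrays' maxima. The mean differences of hexokinase were 0.50, 0.26 and 0.46, but its states overlapped at each position. Its 5′ probe set read 8.04, 9.04 and 7.47 in A16 and 8.05, 9.38 and 8.78 in NA16. The control probe sets of GAPDH and hexokinase were not in the fit. These differences between positions within a transcript hold different probes, so a single value has no meaning as a level. The cause of the beta-actin change was not tested, nor was any part of cell death in it.

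**Figure D2:**
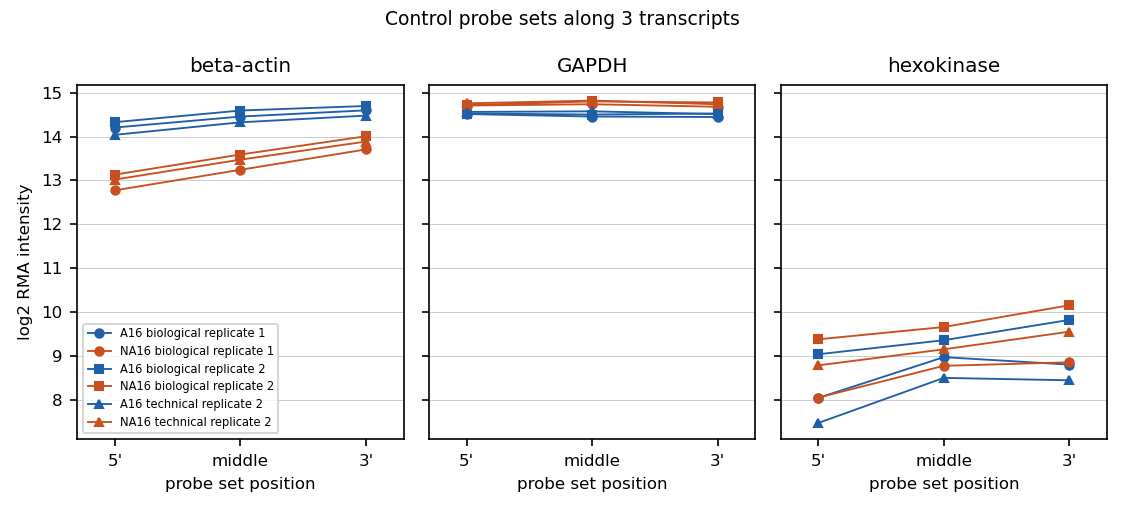
Log2 RMA intensity (y axis) at the 5′, middle and 3′ control probe sets (x axis) of beta-actin, GAPDH and hexokinase, with 1 line per array, A16 in blue and NA16 in orange. The beta-actin lines of NA16 are lower and steeper, with 3′ minus 5′ differences of 0.87 to 0.93 against 0.37 to 0.44. The GAPDH lines stay flat in both states, close to the arrays' maxima.

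Actg1, cytoplasmic gamma-actin, was not called. Its bright probe set 1371327_a_at read 14.80, 14.78 and 14.77 in A16 and 14.53, 14.60 and 14.55 in NA16. All NA16 arrays were lower, but the log2 change was only -0.21 (SE 0.10, limma adjusted p = 0.20). These values stood at the 99.88 to 99.99 percentile of their arrays, close to the maxima. Its dimmer probe set 1384581_at read 9.24, 8.73 and 8.72 in A16 and 8.84, 8.54 and 8.41 in NA16, where the states overlapped (-0.27, limma adjusted p = 0.19). The intensity ratio of the Actb 3′ probe set to the Actg1 probe set moved by -0.50 within arrays, from -0.16 ± 0.12 to -0.67 ± 0.11 (SD, n = 2), where the Actg1 probe set lay close to the maxima. The ratio of Acta2 to the Actb 3′ probe set moved by -1.33, or -0.94 in the PLIER columns. The 2-sided exact permutation test gave p = 0.333 for each of 3 such ratios, adjusted p = 0.333, the smallest value possible.

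The cytoplasmic actins lay near the top of the scale, where saturated probes could narrow a change, which was not tested. Of the 143 probe sets with a mean A16 level of at least 14, 23 were lower in NA16 (16.1%) and 1 was higher (0.699%). Their changes ran from -1.61 to 0.41, with a median of 0.02. They were picked by their A16 level alone, which favours falls over rises, and they include probe sets of Actb and Actg1. A further pair of probe sets near the top of the scale carry the symbols Actg1l1, Actg1 and Actb together and were kept apart from the members. The first, 1398835_at, read 14.72, 14.83 and 14.56 in A16 and 13.87, 14.14 and 13.99 in NA16, a log2 change of -0.70 (limma adjusted p = 0.012). The second, 1398836_s_at, had a log2 change of -0.75 (limma adjusted p = 0.015). These are nearer to the 3′ Actb value than to the Actg1 value, and which gene gives their signal cannot be told apart. Of 5 probe sets shared by Acta2 and the cardiac actin gene Actc1, 3 were lower, by -0.94, -0.68 and -0.99.

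**Figure D3:**
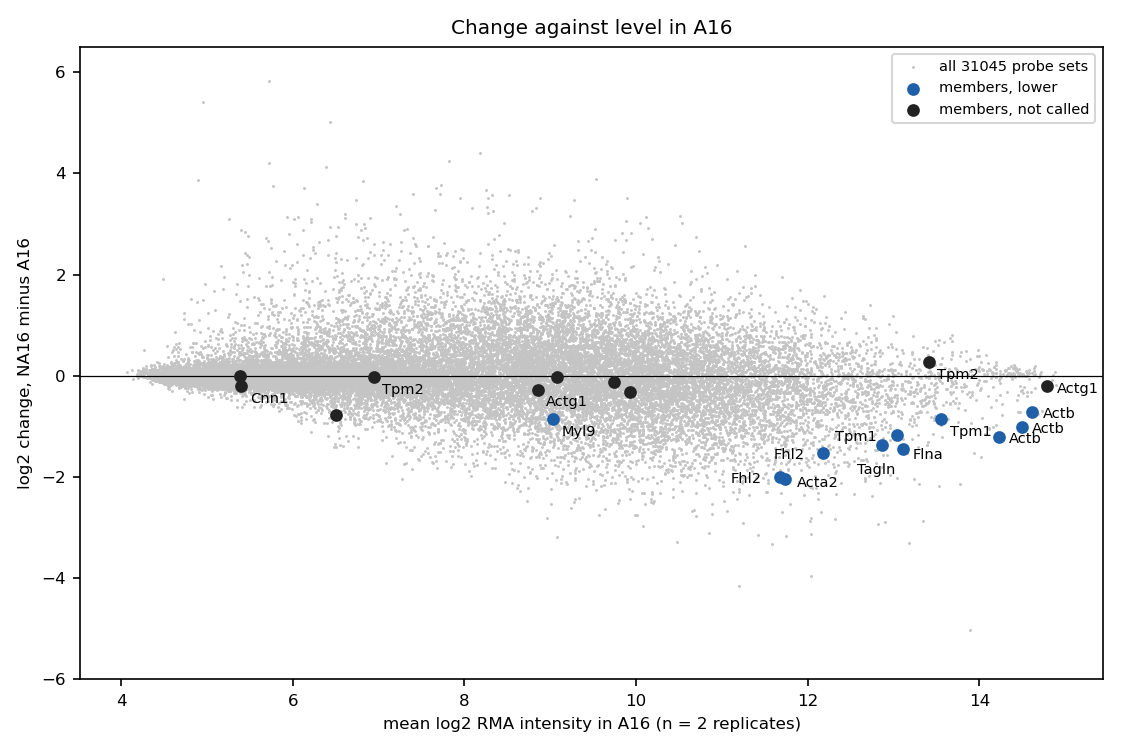
Log2 change, NA16 minus A16 (y axis), against the mean log2 RMA intensity in A16 (x axis) for all 31045 probe sets in grey, with the 11 lower members in blue and the 10 members not called in black. The lower members lie mostly in the bright part of the scale, Actg1 and Tpm2 lie near 0 there, and the spread of all probe sets narrows at both ends.

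Tagln, an actin-binding protein of the calponin family also called SM22, read 12.81, 12.86 and 12.96 in A16 and 11.00, 11.61 and 11.75 in NA16. The A16 arrays agreed closely and the NA16 arrays were all lower, with biological replicate 1 lowest. Tagln fell 2.60-fold, from 12.87 ± 0.02 to 11.49 ± 0.16 (SD, n = 2; log2 change -1.38, SE 0.12, adjusted p = 0.0010 by limma). Myl9, the regulatory light chain of smooth muscle and non-muscle myosin II, read 9.14, 8.94 and 9.10 in A16 and 8.18, 8.04 and 8.43 in NA16. The states did not overlap, and Myl9 fell 1.81-fold (log2 change -0.85, SE 0.14, limma adjusted p = 0.0068). Cnn1, calponin 1, read 5.45, 5.31 and 5.54 in A16 and 5.27, 5.06 and 5.41 in NA16. These levels stood at the 8.57 to 17.2 percentile of the arrays, the states overlapped, and the change was -0.20 (limma adjusted p = 0.40). Over 15 alternatives the change lay between -0.35 and 0.01 and was not called.

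Fhl2, a LIM-domain protein that is both a cofactor and a target of SRF signalling, fell by both of its probe sets. Probe set 1369313_at read 11.51, 11.76 and 11.71 in A16 and 9.22, 9.89 and 9.74 in NA16, which was 3.99-fold lower (log2 change -2.00, SE 0.16, limma adjusted p = 8.4e-04). Probe set 1371951_at read 12.28, 12.09 and 12.27 in A16 and 10.48, 10.69 and 10.78 in NA16, which was 2.87-fold lower (-1.52, SE 0.11, limma adjusted p = 6.9e-04). In both, every NA16 array was more than a full unit below every A16 array. Flna, filamin A, crosslinks actin filaments and ties them to integrins. It read 12.87, 13.18 and 13.20 in A16 and 10.96, 11.95 and 11.77 in NA16, so that the NA16 biological replicates lay almost a unit apart without reaching A16. Flna fell 2.73-fold, from 13.11 ± 0.10 to 11.66 ± 0.42 (SD, n = 2; log2 change -1.45, SE 0.20, adjusted p = 0.0044 by limma).

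Tropomyosins lie along actin filaments and set which other proteins bind them. Tpm1 had 7 probe sets, of which 2 were lower and 5 not called. The brightest, 1370287_a_at, read 13.50, 13.63 and 13.46 in A16 and 12.15, 12.90 and 12.83 in NA16, a 1.82-fold fall (log2 change -0.86, SE 0.16, limma adjusted p = 0.012) that was not called without A16 replicate 2 (-0.79, limma adjusted p = 0.052). Next came 1370288_a_at, which read 12.86, 13.32 and 12.69 in A16 and 11.44, 11.98 and 12.07 in NA16, a 2.26-fold fall (-1.18, SE 0.20, limma adjusted p = 0.0083). In both, no array of 1 state overlapped the other. Probe set 1370513_at was dim, at 6.33, 6.85 and 5.98 in A16 against 5.72, 5.83 and 5.55 in NA16, and its change of -0.77 was not called (limma adjusted p = 0.061; 8 of 15 alternatives called it, at 0.0025 to 0.19). The other 4 had overlapping arrays and changes of -0.02 (1368724_a_at), -0.01 (1371240_at), -0.13 (1371241_x_at) and -0.31 (1395794_at), with limma adjusted p from 0.19 to 0.96. The change of 1371241_x_at was -0.57 without A16 replicate 1, 0.31 without A16 replicate 2 and 0.05 without NA16 replicate 1, and that of 1395794_at was -0.16 without A16 replicate 2, none of them called. Tpm1 makes several isoforms by alternative promoters and splicing, and which of them each probe set reads was not analysed here.

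Tpm2, the beta-tropomyosin gene, did not follow Tpm1. Its bright probe set 1372219_at read 13.36, 13.44 and 13.43 in A16 and 13.62, 13.67 and 13.76 in NA16. All NA16 arrays were above all A16 arrays, by a log2 change of 0.27 (SE 0.10) that was not called (limma adjusted p = 0.11, from 0.033 to 0.40 over 16 alternatives, 1 of which called it higher). Its dim probe set 1392976_at was at 6.94 ± 0.05 in A16 and 6.91 ± 0.01 in NA16 (SD, n = 2). The intensity ratio of the bright Tpm1 to the bright Tpm2 probe set read 0.14, 0.20 and 0.03 on the A16 arrays and -1.48, -0.78 and -0.93 on the NA16 arrays. It moved by -1.13, and by -1.11 in the PLIER columns, and all NA16 ratios lay below all A16 ratios. The 2 tropomyosin genes thus changed unequally on these probes.

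**Figure D4:**
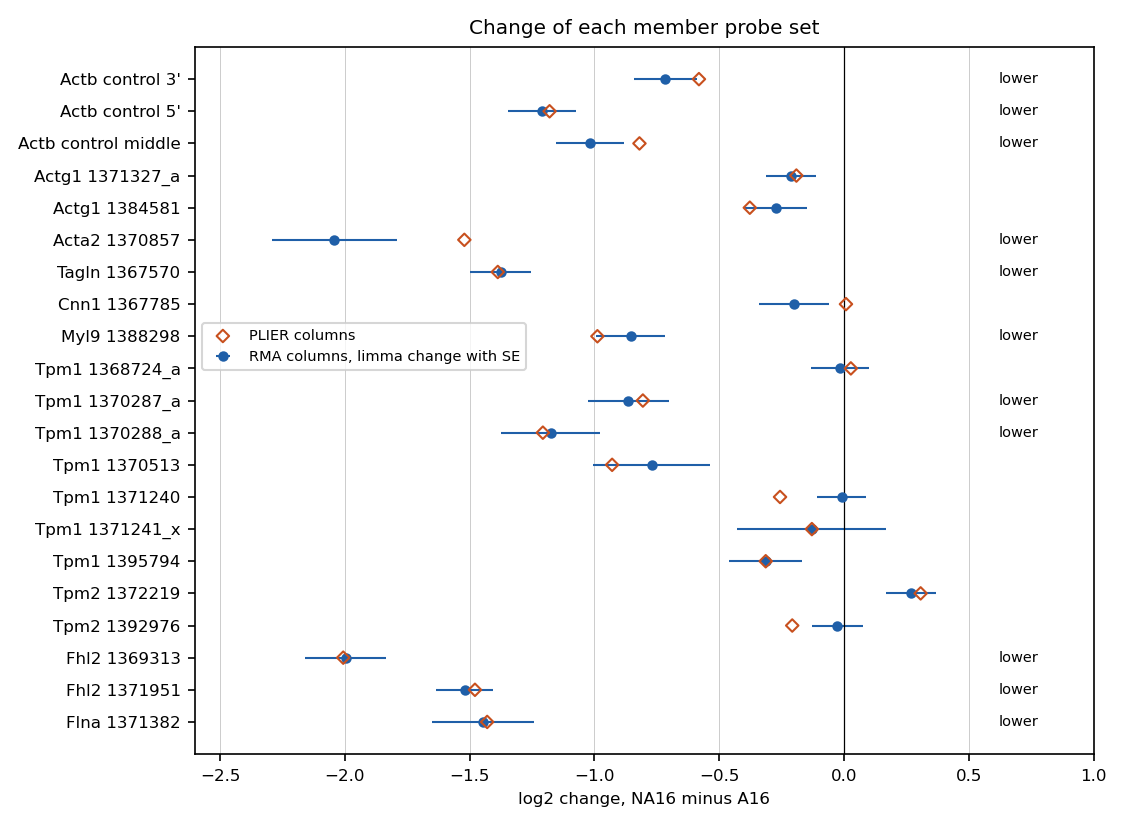
Log2 change, NA16 minus A16 (x axis), of each member probe set (y axis) from the RMA columns with its SE (blue) and from the PLIER columns of the same arrays (open diamonds), with called probe sets marked lower. The 2 algorithms differ most among called members for Acta2, at -2.04 and -1.52.

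Among the 11 lower member probe sets, NA16 biological replicate 1 was the lowest NA16 array in 9, against 1501 of the 4101 lower probe sets of the whole table (36.6%). Acta2 and Myl9 were the exceptions. The 9 include 3 probe sets of Actb and 2 each of Tpm1 and Fhl2, all read on the same arrays, so they are not separate observations. Without NA16 replicate 1, 10 members were lower, and without NA16 replicate 2, 11 were.

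Of SRF and its cofactors 8 of 9 listed genes were measured. By the fit over genes 2 were lower and 1 higher, beside 17.0% and 21.9% of all genes, with a median change of -0.10. Mrtfa, a cofactor that free actin monomers hold back, fell from 10.55 ± 0.03 to 9.77 ± 0.41 (SD, n = 2; log2 change -0.78, limma adjusted p = 0.017), a call made in 13 of 17 alternatives. Elk3, an ETS factor that binds beside SRF, fell by 0.52 (limma adjusted p = 0.047; 9 of 17 alternatives called it, at 0.0023 to 0.34), with a change of -0.29 averaged over its probe sets. Scai, an inhibitor of Mrtfa, rose by 0.51 (limma adjusted p = 0.019; called in 12 of 16) from a dim level, the 34.1 percentile in A16. Srf itself was at 10.45 ± 0.12 in A16 and 10.10 ± 0.06 in NA16 (SD, n = 2), a change of -0.35 that was not called (limma adjusted p = 0.059; 8 of 17 alternatives called it, at 0.013 to 0.35). The mean of all Srf probe sets had a larger change, -0.74. Elk1 (-0.08), Elk4 (0.09), Myocd (-0.06) and Abra (-0.12) were not called, and Myocd and Abra, cofactors of muscle, stood at the 23.5 and 17.4 percentile in A16.

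The other actin genes measured were both dim. Actg2, the enteric smooth muscle actin, fell by 0.38 in the RMA columns (limma adjusted p = 0.041) and had -0.93 in the PLIER columns, and its call was made in 9 of 16 alternatives. Acta1, the skeletal muscle actin, had -0.23 and was not called.

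Of 30 further contractile and actin-bundling SRF targets 28 were measured, of which 15 were lower and 2 higher, with a median change of -0.63 (17.0% and 21.9% over all genes, median 0.01). The largest falls were in Smtn, a smooth muscle actin-binding protein (-1.85, SE 0.30), Tpm3, another tropomyosin (-1.41, SE 0.11), Fhl1, a relative of Fhl2 (-1.31, SE 0.13) and Flnc, a relative of Flna (-1.24, SE 0.12). Their limma adjusted p was 0.0028, 1.5e-04, 4.2e-04 and 3.4e-04. Against the majority, Myh11, the smooth muscle myosin heavy chain, rose by 0.68 (limma adjusted p = 0.023) and Tes, a focal adhesion protein, by 0.47 (limma adjusted p = 0.025). Their calls were made in 12 and 13 of 17 alternatives, and Myh11 was at 0.42 averaged over its probe sets and at 1.20 in the PLIER columns.

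**Figure D5:**
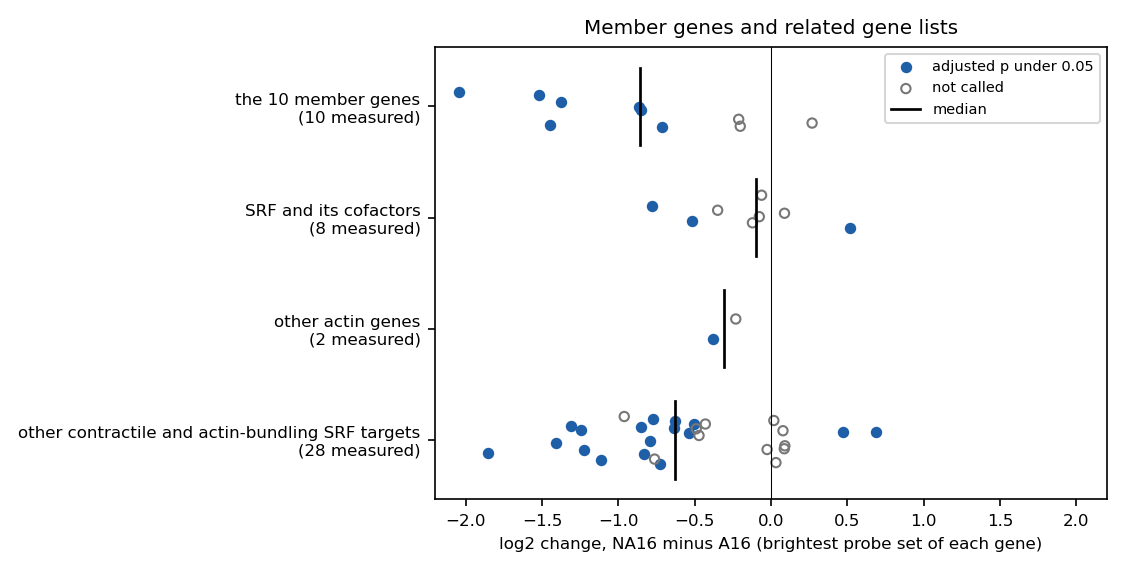
Log2 change, NA16 minus A16 (x axis), of each gene by its brightest probe set for the 10 members and 3 related gene lists (y axis), with called genes filled and medians as black bars. The members (median -0.86) and the further contractile targets (-0.63) lie furthest to the left, and SRF and its cofactors (-0.10) lie around 0.

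The fibroblast label was checked against markers. Vim, Col1a1 and Col1a2 stood at the 99.8 to 99.9 percentile in A16, and of 10 fibroblast markers 0 were lower and 4 higher (Pdgfrb 1.40, Lum 1.15, Pdgfra 0.78 and Thy1 0.47), where 21.9% of all genes were higher. Lum was the dimmest of the list, at the 26.7 percentile in A16, and Pdgfrb stood at the 53.8 percentile. Pdgfrb was at 0.58 averaged over its probe sets, and Thy1 was called in 8 of 17 alternatives. Of 8 markers of differentiated smooth muscle 5 lay under the arrays' median level in A16, among them the regulator Myocd. In that list Smtn and Actg2 were lower while Des, the muscle intermediate filament desmin, rose by 2.48 and Myh11 by 0.68. The summed intensity of the smooth muscle list was 2799 to 4050 on A16 arrays and 3463 to 5725 on NA16 arrays. Its brightest gene was Smtn in A16 (log2 mean 11.13) and Des in NA16 (11.81), and these make up most of the sums. Of the other lists, 0 of 6 skeletal, 1 of 4 cardiac, 2 of 6 macrophage and 2 of 5 epithelial markers were higher and 0 lower.

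The summed intensity of the macrophage markers was 463 to 543 on A16 arrays and 789 to 870 on NA16 arrays. Cd68, a lysosomal membrane protein, rose 2.75-fold and Lyz2, lysozyme, 2.22-fold (1.46 and 1.15 on the log2 scale). Each was called in 17 of 17 limma alternatives, with Lyz2 at 0.63 in the PLIER columns. The defining macrophage markers Csf1r, Itgam, Adgre1 and Ptprc were not called, and all 6 measured markers lay under the arrays' median level in A16. The summed intensity of the epithelial markers was 1265 to 1429 on A16 arrays and 2674 to 3139 on NA16 arrays. Most of this sum was Krt8, with log2 means of 10.12 in A16 and 11.38 in NA16. Krt8, a keratin, rose 2.40-fold (1.26, called in 17 of 17). Epcam, dim at the 26.2 percentile in A16, rose by 0.54 (called in 13 of 16, and at 1.11 in the PLIER columns). Cdh1, Krt14 and Krt18 were not called. Of the cardiac markers Myh6, dim at the 18.5 percentile in A16, rose by 0.68 (called in 16 of 16), or 0.35 averaged over its probe sets. The skeletal markers summed to 444 to 493 on A16 arrays and 443 to 490 on NA16 arrays, and the cardiac markers to 357 to 397 and 363 to 388. The part of these marker levels in the members' changes was not tested.

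The 5 other genes whose values over the 6 arrays were most like those of Acta2 were Polr1f (Pearson r = 0.997), Mfap1a (0.997), Fbxo11 (0.994), Atp5mc3 (0.994) and Vmp1 (0.993). Of the members, Actb was nearest (0.95), then Actg1 (0.94) and Fhl2 (0.92), while Cnn1 stood at 0.45 and Tpm2 at -0.91. These values describe 6 arrays in 2 clusters, A16 and NA16. Any gene clearly lower in NA16 therefore scores high, and any gene clearly higher in NA16 scores strongly negative.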

How the data were processed

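RNA of A16 and NA16 cells was measured on 6 arrays. The intensity values deposited by the authors were normalized in Avadis by RMA and again by PLIER, with versions not given in the sources used here. They are on a linear scale with all values above 16, so a constant may have been added, which would understate changes of dim probe sets. Log2 was taken here. Depth does not apply to arrays, and their number limits the precision. Labels number biological replicate 1 as technical replicate 1, so technical replicate 2 was averaged with it. Whether biological repeats were separate cultures is not given, so p-values reflect only variation among these arrays, possibly technical. The names come from the platform annotation, with 20826 probe sets of 1 symbol, 436 of several and 9780 of none. lmFit and eBayes of limma 3.58.1 (R 4.3.3) compared 2 with 2 replicates, with Benjamini-Hochberg adjustment over 31045 probe sets or 14218 genes. The fit was tested on simulated data. Exact permutation tests were used for ratios. The members and gene lists were chosen with earlier results of these data known. Named were all members, of each related list up to 4 called genes of largest change, any called gene against its majority and all genes of related lists (not marker lists) with under 10 measured, the 5 genes most like Acta2, and the control transcripts. A further gene list is not reported here. Markers were named after their values were seen. Alternatives were PLIER, scaling, offset, filter, replicate handling, variance model and the methods' t-test. Numbers of alternatives given with a gene leave the t-test out.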

Additional observations from a re-analysis of the deposited data

How the results depend on the processing

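In limma alternatives the 11 member calls kept their direction, and 2 were lost once each, the Actb 3′ probe set without NA16 replicate 1 (limma adjusted p = 0.058) and Tpm1 1370287_a_at without A16 replicate 2 (0.052). Lower member probe sets numbered 10 to 12 (10 to 12 leaving out a replicate) and higher ones 0, or 1 with every array its own replicate. Lower member genes numbered 7 or 8 (7 leaving out a replicate), and higher ones 0, or 1 with every array its own replicate, with a variance trend and robust fit, and with the replicate block. By the methods' t-test with Benjamini-Hochberg adjustment all counts were 0, lower and higher alike, for all probe sets, members and related genes (lowest adjusted p 0.064, and 0.089 among members). At an unadjusted p below 0.05 with 2-fold change that t-test called 7 of 21 members lower and 0 higher. Of all 31045 probe sets it called 1322 lower and 1523 higher by the same rule. Related genes numbered 18 lower and 3 higher, and 12 to 22 lower and 1 to 2 higher leaving out a replicate. With technical replicate 2 averaged with biological replicate 2 in NA16 alone, an alternative chosen after seeing the data, they were 17 lower and 2 higher. Over all probe sets, leaving out a replicate gave 2793 to 3916 lower and 3089 to 3736 higher. The members' median change was -0.82 to -0.64 leaving out a replicate (-0.64 without A16 replicate 2, -0.66 without NA16 replicate 1). The beta-actin 3′ minus 5′ change was 0.47 to 0.52 leaving out a replicate, 0.60 in the PLIER columns with and without median centring, and 0.52 without technical replicate 2. The replicate numbers deviated together across probe sets (r = 0.54), but 2 pairs do not establish a pairing. With the replicate block 12 member probe sets were lower and 0 higher, and 5868 of all probe sets lower and 6008 higher. The cause of the differences between alternatives was not tested. At the top of the scale and near its bottom, signal limits what could be seen.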
